A study of Mus musculus with 81 samples.

Results

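The 10 genes described here encode enzymes that act after the committed step of branched chain amino acid breakdown. They were Ivd, Mccc1, Mccc2 and Auh of the leucine route, Acadsb of the isoleucine route, Acad8, Hibch and Hibadh of the valine route, and Pcca and Pccb, whose products act on the propionyl-CoA made from isoleucine and valine. The members were chosen by name, and each was read from its probe set with a single gene symbol, taking the highest mean over 81 arrays where there were several. All 10 were measured, each by 1 probe set, among 22180 genes with a named probe set. Each array held RNA from the whole heart of about 5 male mice of 1 strain, pooled, aged 29 weeks and fasted overnight. High fat diet was given to 39 strains (39 arrays) and chow to 42 strains (42 arrays), and 39 strains had both. Those 39 were 37 BXD recombinant inbred strains, which carry mosaics of the DBA/2J and C57BL/6J genomes, and both parents. BXD60, BXD79 and BXD92a had chow alone. The protocol text describes only the chow, so what the high fat feed contained is not known here, and the diet of each array was taken from its label.

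Leucine, isoleucine and valine first lose their amino group and are then decarboxylated by the branched chain ketoacid dehydrogenase complex, which leaves branched acyl-CoA esters in the mitochondrion. A dehydrogenase particular to each route oxidises its ester and passes electrons to the electron transfer flavoprotein. Leucine carbon ends as acetyl-CoA and acetoacetate, valine carbon as propionyl-CoA, and isoleucine carbon as acetyl-CoA and propionyl-CoA, which is carboxylated and enters the citric acid cycle as succinyl-CoA. Cardiac muscle is known to oxidise these amino acids beside its main fuel, fatty acids.

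The deposited values are on a scale that resembles a logarithm, rescaled per array to average 8 with SD 2 across its 41345 probe sets. The base and slope of that scale are unknown, so differences are given in its units and no fold change is given. For orientation, the median gene had a mean level of 8.18 units. A difference is the value on high fat minus the value on chow of the same strain. Because each strain and diet had 1 pooled array, p-values for diet rest on how the within-strain differences spread over strains. The tests of strain and of the parents use that same spread as their error. The response of a single strain has no replicate check. Since hearts were measured whole, fewer cells of a type and less RNA per cell cannot be told apart.

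On high fat, 7 of the 10 genes fell, none rose, and 3 did not pass the test (limma with strain as a block, adjusted p under 0.05 over all genes). Calls between the diets were widespread: 45% of all genes passed, 21.2% as lower on high fat and 23.8% as higher. Of 92 spike-in control probe sets, which match no mouse gene, 40.2% passed too, and the cause was not tested. The median difference of the 10 members was -0.119 units, against 0.00526 units over all genes. The genes that fell were all 3 branched acyl-CoA dehydrogenases (Acadsb, Ivd and Acad8), both subunits of methylcrotonyl-CoA carboxylase (Mccc1 and Mccc2) and both subunits of propionyl-CoA carboxylase (Pcca and Pccb). Auh, Hibch and Hibadh were not called.

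Acadsb encodes the short/branched chain acyl-CoA dehydrogenase, which oxidises 2-methylbutyryl-CoA of the isoleucine route. Its level was 11.25 at the lowest, 11.46 at the median and 11.77 at the highest of 39 high fat arrays, against 11.43, 11.82 and 12.12 on chow. All 39 high fat arrays lay below the chow median and 15 lay below the lowest chow array, although the ranges overlapped. The difference was -0.335 ± 0.0289 units (SE, 39 strains, limma adjusted p = 1.5e-12), lower in 38 strains. Of all genes, 1.79% had a lower difference.

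Ivd encodes isovaleryl-CoA dehydrogenase, which opens the leucine route after decarboxylation. Its level was 11.50 at the lowest, 12.14 at the median and 12.62 at the highest on high fat, against 11.75, 12.44 and 12.77 on chow. The ranges overlapped widely, with 5 high fat arrays below the lowest chow array. Within strains the difference was -0.311 ± 0.0294 units (SE, limma adjusted p = 1.57e-11), again lower in 38 of 39 strains. The largest fall was -0.756 units, in BXD81.

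Acad8 encodes isobutyryl-CoA dehydrogenase, the corresponding enzyme of the valine route. Levels ran over 9.92, 10.27 and 10.57 (lowest, median, highest) on high fat, against 10.21, 10.47 and 10.79 on chow, and 16 high fat arrays lay below the lowest chow array. Its difference was -0.224 ± 0.0312 units (SE, limma adjusted p = 1.36e-07), lower in 33 of 39 strains. Acadsb, Ivd and Acad8 thus had the 3 largest differences among the 10 members.

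**Figure D1:**
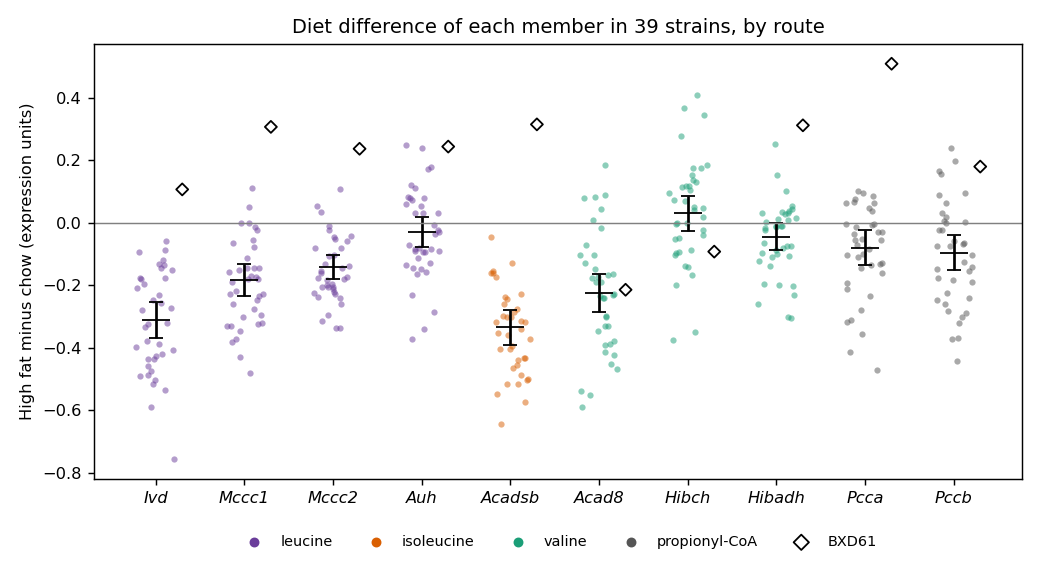
Difference between high fat and chow (units of the deposited scale, vertical axis) of the 10 genes, in 39 strains. Dots are strains, the bar is the mean with its 95% interval over strains, and the open diamond is BXD61. The means of Acadsb, Ivd and Acad8 lie at -0.335, -0.311 and -0.224 units, while Hibch lies at 0.0297 units.

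The promoters of these 3 dehydrogenases are shown because their genes had the largest differences. Sequences are from RefSeq on GRCm38.p6, from 250 bases before to 50 bases after the annotated start, 5′ to 3′ on the strand of the gene. They lie at chr2:118861744-118862043 on the plus strand for Ivd, chr7:131410351-131410650 on the plus strand for Acadsb and chr9:26999500-26999799 on the minus strand for Acad8. Capitals mark GGGCGG (the GC box) and CCAAT, each read on both strands, and matches that overlap run together.
Ivd: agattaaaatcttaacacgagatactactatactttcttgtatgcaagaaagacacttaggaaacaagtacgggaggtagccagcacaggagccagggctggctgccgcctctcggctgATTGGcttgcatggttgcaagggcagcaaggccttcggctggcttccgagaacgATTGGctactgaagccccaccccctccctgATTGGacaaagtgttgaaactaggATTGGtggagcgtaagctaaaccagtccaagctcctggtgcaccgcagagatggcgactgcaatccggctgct
Acadsb: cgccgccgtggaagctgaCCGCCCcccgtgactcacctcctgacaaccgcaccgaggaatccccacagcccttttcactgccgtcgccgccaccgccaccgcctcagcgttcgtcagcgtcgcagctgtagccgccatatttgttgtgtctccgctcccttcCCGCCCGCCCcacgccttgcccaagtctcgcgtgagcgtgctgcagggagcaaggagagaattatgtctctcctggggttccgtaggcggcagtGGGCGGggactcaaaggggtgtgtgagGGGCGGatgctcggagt
Acad8: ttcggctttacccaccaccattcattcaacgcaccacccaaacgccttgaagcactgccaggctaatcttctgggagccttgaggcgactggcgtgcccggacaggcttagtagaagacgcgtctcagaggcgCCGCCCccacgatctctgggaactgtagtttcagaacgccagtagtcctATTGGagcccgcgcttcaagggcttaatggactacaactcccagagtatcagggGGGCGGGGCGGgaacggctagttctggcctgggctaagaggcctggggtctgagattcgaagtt
The Ivd window had 4 CCAAT matches, all read from the opposite strand, at positions -131, -77, -47 and -23 from the start (leftmost base), and no GC box. The Acadsb window had 5 GC boxes and no CCAAT, and the Acad8 window had 3 GC boxes and 1 CCAAT. Their GC contents were 53.0% for Ivd, 66.0% for Acadsb and 58.3% for Acad8. All 10 genes matched the RefSeq table, with 11 windows in all, since Pcca has 2. Both motifs were common: GGGCGG was in 7 of the 11 windows and in 35.7% of 32851 promoter windows, and CCAAT was in 7 of the 11 and in 37.4%. AAGGTCA, the core motif of the oestrogen-related receptors, was in none of the 11 and in 4.72% of all windows. CACGTG, the E-box, was in 1 of the 11, that of Mccc2, and in 7.15% of all windows.

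Mccc1 and Mccc2 encode the biotin-bearing and the other subunit of methylcrotonyl-CoA carboxylase, the step of leucine breakdown after Ivd. Mccc1 ran over 10.36, 10.67 and 11.14 units (lowest, median, highest) on high fat, against 10.57, 10.85 and 11.17 on chow. It differed by -0.183 ± 0.0270 units (SE, limma adjusted p = 4.23e-07) and was lower in 36 of 39 strains. Mccc2 ran over 10.81, 11.02 and 11.37 units on high fat, against 10.94, 11.16 and 11.41 on chow. Its difference was -0.142 ± 0.0224 units (SE, limma adjusted p = 1.53e-06), lower in 35 strains. Both subunits therefore fell, with overlapping ranges, and with 10 high fat arrays below the lowest chow array for Mccc1 and 11 for Mccc2.

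Auh encodes methylglutaconyl-CoA hydratase, which follows the carboxylase and whose product is also known to bind AU-rich RNA. It ran over 8.88, 9.31 and 9.70 units on high fat, against 8.85, 9.34 and 9.67 on chow, and the groups overlapped throughout. The difference was -0.0307 units with a 95% interval over strains of -0.0795 to 0.0180 (limma adjusted p = 0.348), and 23 strains were lower. The leucine route thus held 3 genes that fell and 1 that was not called, with a median difference of -0.163 units.

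Beyond Acad8, the valine route continues through Hibch, which releases the CoA from 3-hydroxyisobutyryl-CoA, and Hibadh, which oxidises 3-hydroxyisobutyrate. Hibch ran over 10.48, 10.80 and 11.07 units on high fat, against 10.44, 10.77 and 10.90 on chow. Its difference was 0.0297 units, with an interval of -0.0258 to 0.0853 (limma adjusted p = 0.417), higher in 21 strains and lower in 18. Hibadh ran over 13.57, 13.87 and 14.16 units on high fat, against 13.68, 13.91 and 14.18 on chow. It differed by -0.0448 units, with an interval of -0.0875 to -0.00207, and did not pass over all genes (limma adjusted p = 0.12). By a sign-flip permutation test over strains of this gene alone, not adjusted over genes, Hibadh had p = 0.0408. Without BXD61, Hibadh passed at -0.0541 units (limma adjusted p = 0.0468). Across the 3 valine genes the median difference was -0.0448 units.

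Pcca and Pccb encode the biotin-bearing and the other subunit of propionyl-CoA carboxylase, where isoleucine and valine carbon meet. Pcca ran over 11.39, 11.64 and 12.12 units on high fat, against 11.50, 11.71 and 12.02 on chow. It differed by -0.0802 ± 0.0291 units (SE, limma adjusted p = 0.0223), lower in 29 strains. Pccb ran over 10.82, 11.11 and 11.56 units on high fat, against 10.90, 11.26 and 11.53 on chow. It differed by -0.0958 ± 0.0290 units (SE, limma adjusted p = 0.00628), lower in 27 strains. Both falls were small, and 24.4% of all genes had a lower difference than Pcca. Differences between routes were not tested, because the routes hold 1 to 4 genes each.

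**Figure D2:**
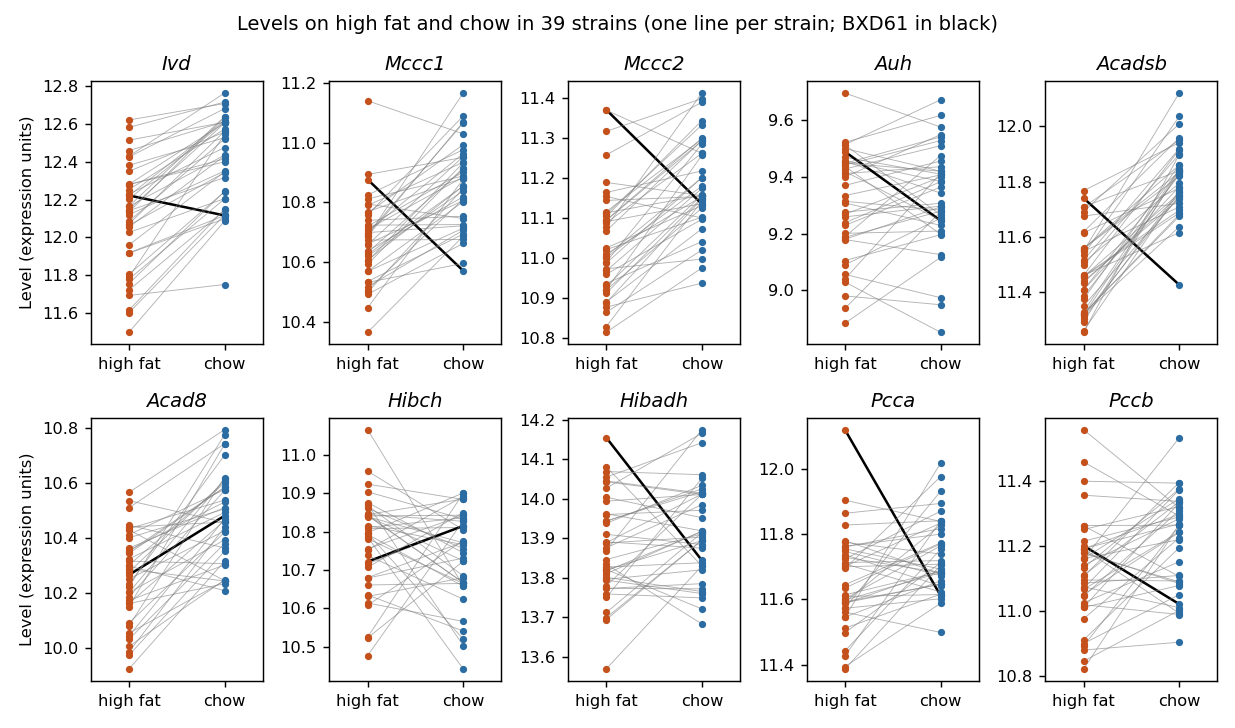
Level of each of the 10 genes (units of the deposited scale, vertical axis) in 39 strains, high fat left and chow right, with a line per strain and BXD61 in black. Medians are 11.46 on high fat and 11.82 on chow for Acadsb, and 10.80 on high fat and 10.77 on chow for Hibch.

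Since the 7 genes were those that fell, most strains necessarily showed most of them lower. All 7 were lower on high fat in 17 strains, 6 of 7 in 14 strains and 5 of 7 in 5 strains. The remaining strains had 4, 3 and 1 of the 7 lower, and the strain with 1 was BXD61. In BXD61, Pcca differed by 0.508, Acadsb by 0.314, Hibadh by 0.311 and Mccc1 by 0.306 units, all higher on high fat. Acad8 (-0.215 units) and Hibch (-0.093 units) were its only members lower on high fat. Over all genes the differences of BXD61 had a cosine of 0.357 with those of the other strains, at rank 4 from the lowest. Over strains the median cosine was 0.419 and the range was 0.286 to 0.491. The mean of the atrial markers differed by 1.58 units in BXD61, inside the range of -3.28 to 3.44 units over strains (mean 0.162, SD 1.72). Endothelial markers differed by -0.176 units in BXD61, the lowest of the strains, which reached 0.189 units. Liver markers differed by 0.737 units in BXD61 (range -2.14 to 1.22), fibroblast markers by -0.179 (-0.408 to 0.377) and macrophage markers by -0.138 (-0.185 to 0.549). The part of these lists in its values was not tested. Without BXD61, 8 of the 10 genes fell, Hibadh being the addition. The differences of the 10 genes had SDs over strains of 0.122 to 0.189 units, against a median of 0.253 over genes of all levels. The members had mean levels above 68.3% (Auh) to 99.3% (Hibadh) of genes, and SDs were not compared with genes of like level.

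Levels of some members also differed between strains. Ivd, Auh and Mccc2 of the leucine route passed the limma F test for strain over both diets, that is 3 of 10, against 14.8% of all genes. Calls were not limited to that route under every setting: with median centring Hibadh also passed (limma adjusted p = 0.0188). With genes above the median level alone Mccc1, Acad8, Hibadh and Pccb passed too, beside 33.7% of the 11090 genes tested there. The intraclass correlation, the share of variance that lies between strains, was 0.767 for Ivd (limma adjusted p = 1.73e-07), 0.664 for Auh (limma adjusted p = 0.000124) and 0.546 for Mccc2 (limma adjusted p = 0.0158). Its median over all genes was 0.155 and its 95th percentile 0.559. Over genes above the median level, where all 10 members lie, its median was 0.243. The other members had 0.435 (Hibadh), 0.374 (Mccc1), 0.358 (Pccb), 0.328 (Acad8), 0.192 (Acadsb), 0.114 (Pcca) and -0.00688 (Hibch), with limma adjusted p between 0.073 and 0.722. Acadsb, with the largest diet difference, was thus not called for strain, while Auh, not called for diet, was. Whether strains differ in their response to diet cannot be tested with 1 array per strain and diet.

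Ivd was highest in BXD68 (12.62 on high fat and 12.71 on chow) and BXD48 (12.58 on high fat and 12.72 on chow). It was lowest in BXD90 (11.69 on high fat and 11.75 on chow) and BXD97 (11.50 on high fat and 12.09 on chow). Its strain means spanned 0.945 units from lowest to highest and had an SD of 0.243 units. Its mean diet difference, a different measure, was -0.311 units. Ordered by mean, 10 BXD strains lay at or below 12.02 units and 27 at or above 12.15, a gap of 0.131 units. Among BXD strains it was the largest between neighbouring means once the ends were set aside. The mean of the parent DBA/2J, 12.12 units, lay inside that gap. Auh was highest in BXD103 (9.70 on high fat and 9.58 on chow) and lowest in BXD56 (9.03 on high fat and 8.85 on chow). Mccc2 was highest in BXD66 (11.32 on high fat and 11.40 on chow) and lowest in BXD97 (10.81 on high fat and 10.98 on chow). BXD97 was among the 2 lowest strains for 5 members (Ivd, Mccc1, Mccc2, Hibch and Pccb). BXD48 was among the 2 highest for 4 (Ivd, Mccc1, Pcca and Pccb). Of these genes only Ivd and Mccc2 were called for strain, and no such count was made for other genes.

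**Figure D3:**
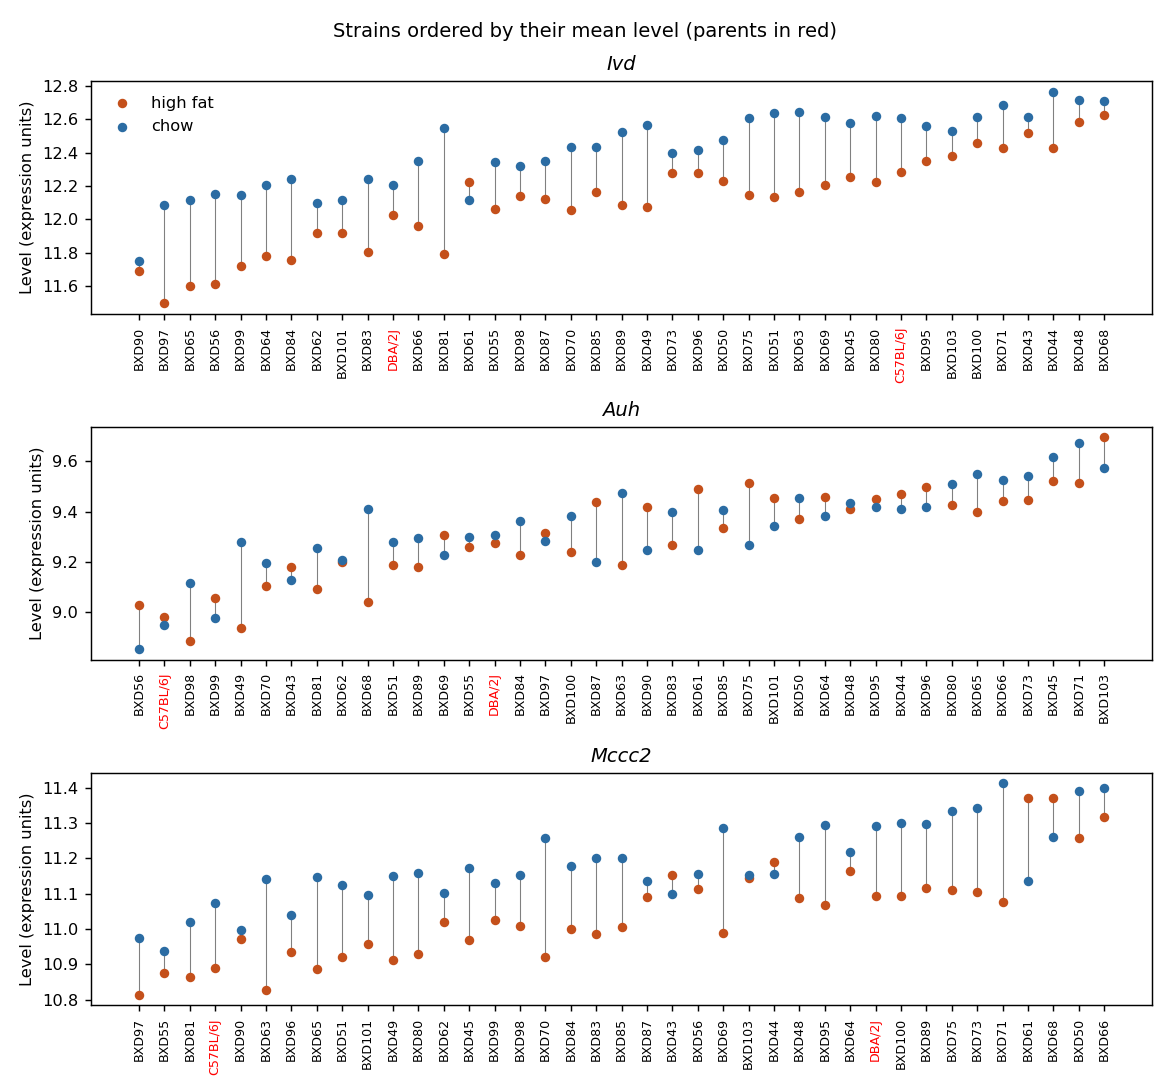
Levels of Ivd, Auh and Mccc2 (units of the deposited scale) in 39 strains ordered by their mean, with high fat in orange, chow in blue and the names of the parents in red. The strain means of Ivd span 0.945 units.

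Between the parents, DBA/2J minus C57BL/6J, none of the 10 genes passed (limma, adjusted p), against 2.36% of all genes. The unadjusted limma p was under 0.05 for 3 (Auh, Ivd and Mccc2). The share of all genes at that unadjusted cut was not computed. Auh was 9.28 on high fat and 9.31 on chow in DBA/2J, against 8.98 on high fat and 8.95 on chow in C57BL/6J. Its difference was 0.327 ± 0.115 units (SE, limma adjusted p = 0.149). Ivd was 12.03 on high fat and 12.21 on chow in DBA/2J, against 12.28 on high fat and 12.61 on chow in C57BL/6J. It differed by -0.329 ± 0.130 units (SE, limma adjusted p = 0.222). Mccc2 differed by 0.212 units (limma adjusted p = 0.339). For Auh, both DBA/2J arrays lay above both C57BL/6J arrays, and for Ivd both lay below both. Of 37 BXD means, 24 were above both parents for Auh, 1 below both and 12 between. Between the parents lay 19 of 37 for Ivd and 25 for Mccc2. For Mccc1, 34 of 37 were below both, but its parents differed by only -0.023 ± 0.119 units (SE), and it was not called for strain. Each parent had 1 array per diet.

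The diet differences of the members were related across strains, and fewer of these relations passed without BXD61. Of 45 pairs, 42 had a positive Pearson correlation over 39 strains, with a median r of 0.305. By the permutation test with 100000 draws, 18 pairs passed (adjusted over the 45), of which 7 also passed by Spearman's rho. Without BXD61, 5 pairs passed, 3 of them by both measures. Ivd and Pcca had r = 0.692 and rho = 0.657 (permutation adjusted p = 0.00045 for each), 0.589 without BXD81 and BXD61, the strains farthest from the median of Ivd. Acad8 and Hibch had r = 0.551 and rho = 0.504 (permutation adjusted p = 0.00315 and 0.0186), and 0.550 without BXD70 and BXD80. The subunit pairs had lower coefficients. Mccc1 and Mccc2 had r = 0.479 and rho = 0.282 (permutation adjusted p = 0.0116 and 0.168), and 0.302 without BXD61 and BXD48. Pcca and Pccb had r = 0.442 and rho = 0.429 (permutation adjusted p = 0.0162 and 0.0435), and 0.421 without BXD61 and BXD80. Without BXD61 alone neither subunit pair passed: r was 0.369 for Pcca and Pccb (permutation adjusted p = 0.112) and 0.295 for Mccc1 and Mccc2 (permutation adjusted p = 0.147). Mccc1 and Hibadh had r = -0.136 over all strains and -0.471 without BXD61 (permutation adjusted p = 0.0351), where rho was -0.356 and did not pass (permutation adjusted p = 0.118). Without BXD61 and BXD68 their r was -0.409 and did not pass either (permutation adjusted p = 0.0875). The differences of all members in a strain come from the same pair of arrays. Pairs of other genes were not computed, so whether such relations are particular to the members was not tested.

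**Figure D4:**
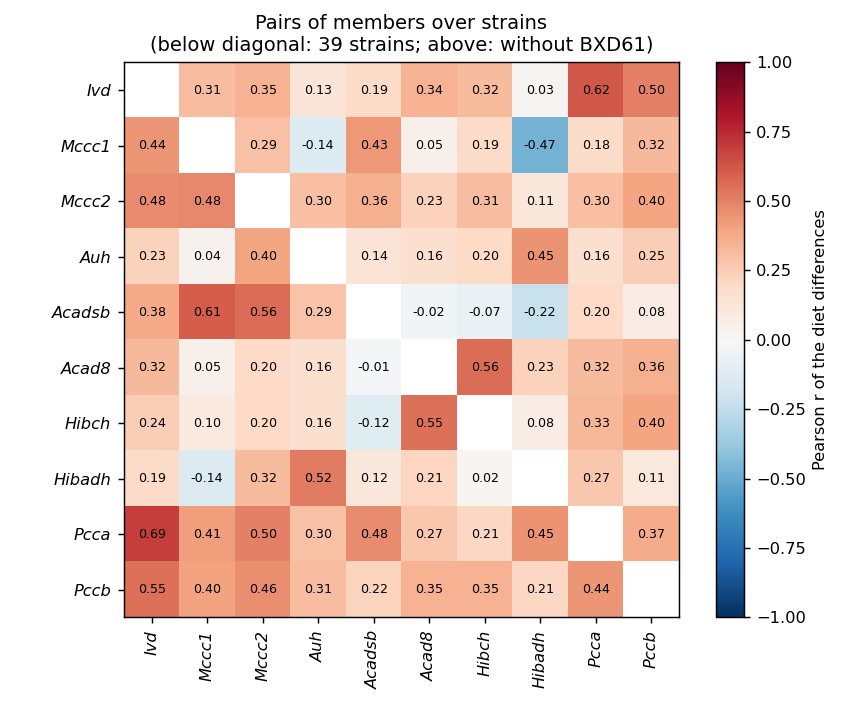
Pearson correlation of the diet differences of each pair of the 10 genes across strains, over 39 strains below the diagonal and without BXD61 above it. The highest is 0.692, for Ivd and Pcca.

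Cardiomyocyte markers were all above the median gene, with a mean of 14.88 units on high fat and 14.93 on chow, and 5 of 8 of them fell. Atrial markers varied most, from 8.70 to 13.88 units on high fat and from 8.75 to 13.76 on chow, with none of 6 called. Fat markers (brown fat and adipocyte) had 1 lower and 1 higher of 11, with means of 8.52 on high fat and 8.54 on chow. Of the other heart cells, 3 of 7 fibroblast, 3 of 6 macrophage and 5 of 8 mesothelial markers rose, and of 6 endothelial markers 2 rose and 1 fell, beside 23.8% of all genes higher and 21.2% lower. Liver markers ran from 8.02 to 10.31 units on high fat and from 7.77 to 12.35 on chow, with 1 of 4 lower and 0 higher. The part of these lists in the members' values was not tested. The difference of the atrial markers was related to that of Hibch (r = -0.466, rho = -0.503, permutation adjusted p = 0.0309 and 0.0121) and of Pcca (r = -0.460, rho = -0.548, permutation adjusted p = 0.0309 and 0.0082), of 20 relations computed. Without BXD63 and BXD80 these were -0.443 and -0.314. With the atrial markers as a covariate Pcca differed by -0.0727 units (limma adjusted p = 0.0252). None of the fat marker relations passed. Spike-in control probe sets, which match no mouse gene, were called in 37 of 92 cases, and 95% of them differed by less than 0.247 units. Of the members, Acadsb and Ivd exceeded that size, as did 9.14% of all genes. The largest spike-in difference was 0.430 units in size. Of 75 other control probe sets, with a mean level of 9.03 units, 95% differed by less than 0.388 units. The largest member difference, -0.335 units for Acadsb, was smaller in size than both.

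Other genes of the pathway were read against the 21.2% of all genes that were lower and the 23.8% that were higher on high fat. Upstream, 5 of 9 genes fell and 1 rose, with a median of -0.118 units. The falls included Bckdhb (-0.435 ± 0.0321 units, SE) and Bckdha (-0.182 units), subunits of the ketoacid dehydrogenase, Ppm1k (-0.375 units), its activating phosphatase, and Bcat2 (-0.263 units), the mitochondrial aminotransferase. Slc25a44, the mitochondrial carrier of these amino acids, rose by 0.0956 units. Of 6 further downstream genes 5 fell, among them Aldh6a1 (-0.258 units), which follows Hibadh, and Mmut (-0.129 units), the mutase after propionyl-CoA carboxylase, while Acat1 had 0.0099 units and was not called. Of 8 cofactor genes, 1 fell (Mmab, -0.105 units) and 1 rose (Mmadhc, 0.133 units). Of 4 genes listed under electron transfer, Etfa, Etfb and Etfdh, whose products carry the electrons, were not called. Etfbkmt, named for a methyltransferase that acts on the flavoprotein's beta subunit, fell (-0.345 units).

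The acyl-CoA dehydrogenases of fatty acids moved in both directions. Of 7 measured, 3 rose and 1 fell, with a median of 0.0488 units. Acads (0.125 units), Acadvl (0.0842 units) and Acadl (0.0791 units) rose, and Acad9, also known for its part in complex I assembly, fell by 0.158 units. Of 2 other biotin carboxylases, Acaca fell (-0.224 units) and Acacb (-0.0771 units) was not called.

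**Figure D5:**
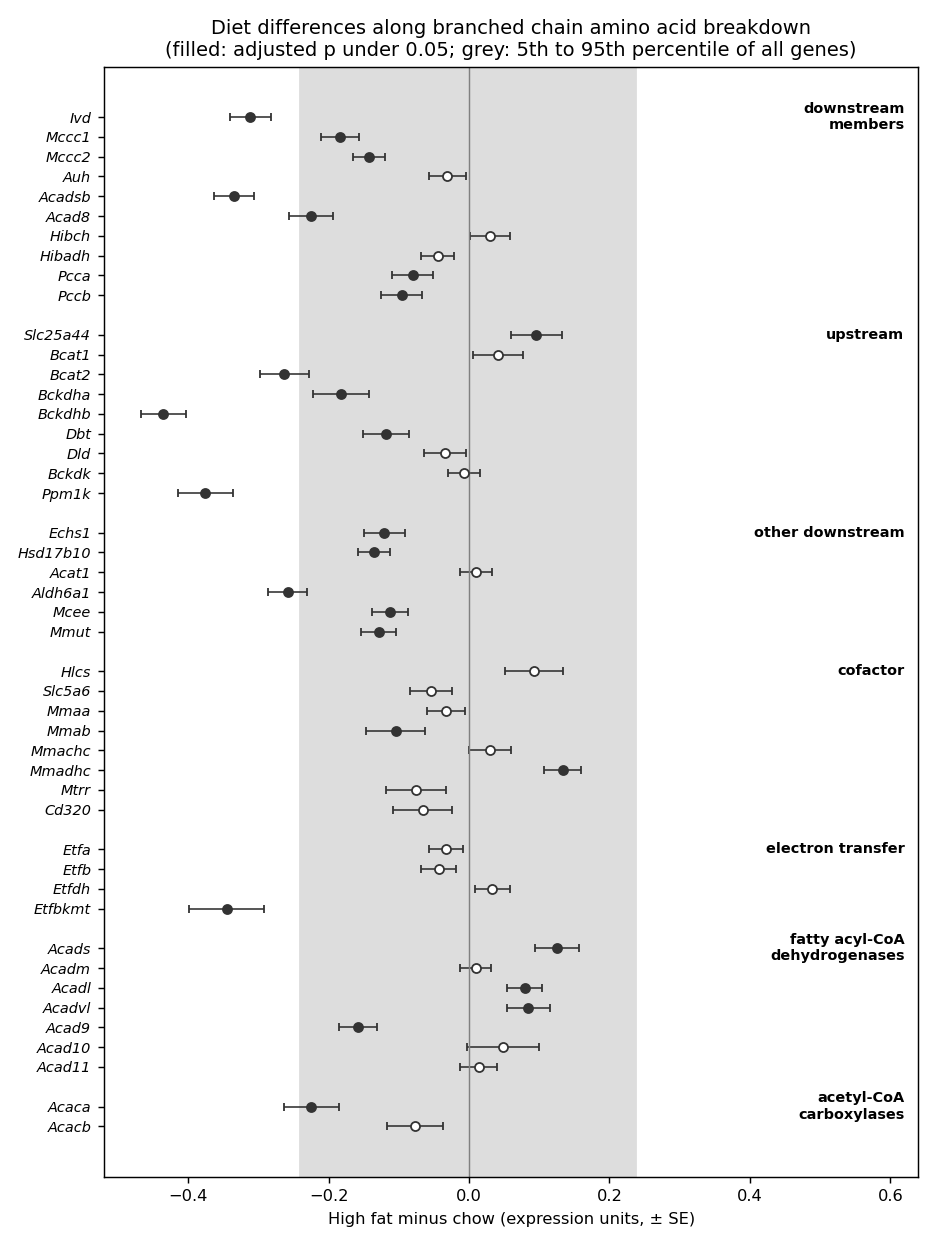
Diet difference (units of the deposited scale, high fat minus chow, mean ± SE) of the 10 members and of the other pathway genes, filled where the adjusted p is under 0.05. The grey band spans the 5th to 95th percentile of all genes, -0.241 to 0.238 units.

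For each member, the 3 genes with the highest correlation of levels over the 42 chow arrays were listed, with their correlation over the 39 high fat arrays as a description. Those of Ivd were Snap23 (0.352 on high fat, 0.750 on chow), Capn3 (0.680 on high fat, 0.689 on chow) and Mtln (0.471 on high fat, 0.683 on chow), all on chromosome 2, as is Ivd. Chromosome 2 holds 7.64% of the named genes. For the other members, 1 of the 27 genes listed lay on the chromosome of its member, Fdft1 for Pcca on chromosome 14. Chromosome 2 also held Prpf18 and Kiz, listed for Mccc1, Phyh, listed for Acadsb, and Mtg2, listed for Acad8. Those members lie on other chromosomes. Acadsb was most like Aldh6a1 (0.707 on high fat, 0.711 on chow), which was also listed for Pccb. Mccc2 was most like Hsd17b10 (0.424 on high fat, 0.658 on chow), followed by Bckdhb. Auh was most like Etfdh (0.323 on high fat, 0.708 on chow). These arrays share strains, and genes that neighbour each other on a chromosome often share the parental segments of those strains. How near the listed genes lie to their member was not examined, and the cause of these correlations was not tested.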

How the data were processed

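RNA of pooled whole hearts was measured on 81 Affymetrix arrays. The deposited value of each probe set is a score, made with Affymetrix Expression Console per the submitters' processing notes, and the files show each array rescaled to average 8 with SD 2. Log values had been assumed when the tests were chosen. The scores resemble logs of unknown base and were tested as they stand, without a pseudocount. No source used here gives its version or later steps. Of 41345 probe sets, 23521 had 1 gene symbol, 1814 had several and 16010 were unnamed. For each of 22180 genes the single-symbol probe set with the highest mean was used. The number of arrays limits the precision.

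Diet was tested with limma 3.58.1 (R 4.3.3) on 78 arrays of 39 strains, fitting a term for each strain plus 1 for diet, at a threshold of 0.05 after Benjamini-Hochberg adjustment over all genes. Strain was tested by the F test of the same fit, and the parents by a contrast within it. Strain, given by the labels, pairs the arrays. Correlations used 100000 permutations. The fits were tested on simulated data. Named genes were the 10 members, the listed pathway genes and, for each member, the 3 genes most like it on chow. The members and lists were chosen with earlier results of these data known. Alternatives were another normalization, a filter on level, covariates, leaving out strains, a sign-flip permutation test and no strain block. Protein sequences were not used here.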

Additional observations from a re-analysis of the deposited data

Results flagged for a closer look

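Among the 92 spike-in control probe sets, which the comparisons do not use, 40.2% passed the diet test (limma, adjusted p under 0.05), 16 lower and 21 higher on high fat. Other control probe sets passed in 19 of 75 cases. The mean level of the spike-in probe sets, 5.96 units, lay below that of the median gene, 8.18 units. Their cause was not tested.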

How the results depend on the processing

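The count of 7 members lower on high fat and the direction of each of those 7 held under quantile normalization, median centring, a filter on level, marker covariates and the fit with no replicate block over all 81 arrays, where the adjusted p of Pcca was 0.0374 (limma). Leaving out each strain in turn gave 7 to 8 members lower, with an adjusted p of Pcca between 0.00248 and 0.0401. With genes above the median level alone, 7 members differed between strains in place of 3, beside 33.7% of the 11090 genes tested in place of 14.8%, and with median centring 4 did. With no replicate block, 0 cofactor genes were lower in place of 1. Chosen after seeing the data, leaving out BXD61 left 5 related pairs, and leaving out BXD61 and BXD68 left 4, in place of 18. Near 0, the intraclass correlation of Hibch changed sign, to 0.0190 under quantile normalization, 0.0670 with the atrial covariate and 0.0369 with the fat covariate, and the parental difference of Hibadh became -0.00304 under quantile normalization. The cause was not tested. With 1 array per strain and diet, signal over background and pool size limit what a single strain can show.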

Other observations

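The 3 strains with chow alone entered no diet comparison. Hibch had 11.02 units in BXD60, above all 39 chow arrays of the paired strains. Mccc1 had 11.11 units in BXD79, above 38 of 39. Pcca had 11.56 units in BXD92a, above 1 of 39.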
